A study of Mus musculus with 14 samples.

Results

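CA1 and the dentate gyrus (DG) are neighbouring fields of the hippocampus, and their RNA was compared here in control tissue that had been homogenised without enzymatic dissociation. The comparison used 5 of the 14 libraries of the study, 3 from CA1 (replicates 1, 2 and 3) and 2 from DG (replicates 2 and 3), chosen by their labels, and every gene of the count table. All 5 came from 1 wild-type C57BL/6 mouse, according to the authors' sample table and the labels; its age is not stated in them. The libraries were therefore separate tissue samples of 1 animal, and the p-values measure only the spread between those samples. The study also held CA3 tissue and enzymatically dissociated samples of each region, which entered no result below unless named.

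The principal cells of CA1 are pyramidal neurons, which receive CA3 input through Schaffer collaterals and entorhinal input on their distal dendrites. The principal cells of DG are granule neurons, small cells with high firing thresholds that send mossy fibres to CA3 and to the mossy cells of the hilus. Both are glutamatergic, but they arise under different transcription factors, among which Prox1 maintains granule cell identity, and they carry different sets of receptors, channels and adhesion molecules. DG is also a region where granule neurons are added in adult life.

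The 5 libraries held 2311086, 6646655 and 2277596 estimated counts in CA1 replicates 1, 2 and 3, and 1285654 and 6086605 in DG replicates 2 and 3. Between 13729 and 15415 of 22485 genes had at least 1 count in a library. On the log2 scale the CA1 libraries correlated with each other across genes at 0.94 or more, whereas DG replicate 2 correlated at 0.871 with DG replicate 3 and at 0.873 with CA1 replicate 2. DG replicate 2 therefore stood apart from its partner, and it was also the shallowest library. Levels are given below as CPM (counts scaled to a common library total), scaled by the trimmed mean of M-values (TMM), always for CA1 replicates 1, 2 and 3 and for DG replicates 2 and 3 in that order. A gene was called different where the Benjamini-Hochberg adjusted p of edgeR's quasi-likelihood test over all tested genes was below 0.05, and every adjusted p for a gene below comes from that fit unless another is named. Log2 differences are CA1 minus DG, with the standard error (SE) of the fit. Where all libraries of a region were at 0, the fold is a lower bound, computed as if the pooled libraries of the region had held 3 counts (0.384 CPM in DG, 0.277 CPM in CA1). Where a region had 1 to 3 counts in all, the fold is the ratio of the pooled levels. Its exact Poisson interval covers counting error only.

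Of 11931 genes with enough counts to test, 519 were called higher in CA1 (4.35%) and 389 higher in DG (3.26%), together 908 or 7.61%. The 2 regions did not overlap in any of these genes, a condition that 4893 of the tested genes met. The called genes had a median log2 difference of 1.41 among those higher in CA1 and -1.94 among those higher in DG, against -0.05 for all tested genes. A log2 difference beyond 4 was reached by 45 genes higher in CA1 and 50 higher in DG. Leaving out 1 library at a time gave 91, 243 and 173 calls higher in CA1 without CA1 replicates 1, 2 and 3, and 1230 and 975 without DG replicates 2 and 3; the calls higher in DG were 61, 134, 139, 839 and 498 in the same order. With 1 DG library left out, the lone DG library is assumed to vary like the CA1 libraries. The fitted fold of 4, 24 and 15 called genes moved by over 1.5 times without CA1 replicates 1, 2 and 3, and that of 112 and 195 without DG replicates 2 and 3. For genes given below with a log2 difference, its value without a library is added where it moved that far. More than 3 counts also had to be left in each region. No called gene that was tested in these 5 fits changed direction in them, and 88 genes higher in CA1 and 52 higher in DG were called in all of them. Upper-quartile scaling gave 462 calls higher in CA1 and 467 higher in DG, so which region had more calls depended on the scaling.

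**Figure D1:**
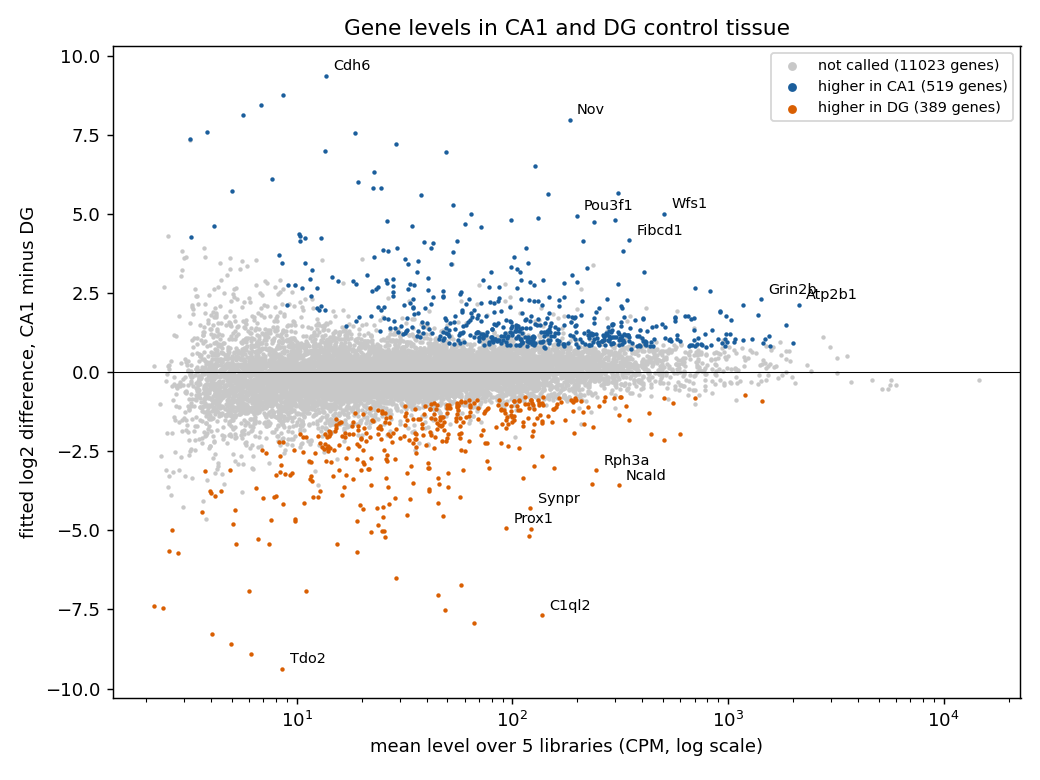
Each point is 1 of 11931 tested genes, with the mean level over the 5 libraries in CPM on a log axis and the fitted log2 difference (CA1 minus DG) on the vertical axis. The 519 genes called higher in CA1 (blue) and the 389 called higher in DG (orange) lie above and below the uncalled genes (grey); fitted differences of genes with no counts in 1 region, such as Cdh6 and Tdo2, depend on the fit's prior count.

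The labels were first compared with marker genes of the principal cells. These lists were chosen with earlier results of these data known, so they are not an independent check of the labels. All 10 of 10 CA1 pyramidal cell markers were called higher in CA1, with a median log2 difference of 4.99, and 14 of 16 granule cell markers were called higher in DG, with a median of -5.04. These are shares of 100% and 87.5%, against 4.35% and 3.26% of all tested genes. Wfs1, an endoplasmic reticulum membrane protein that marks CA1 pyramidal cells, stood at 923, 560 and 989 CPM in CA1 and 33.9 and 19 CPM in DG. Wfs1 was 32.5-fold higher in CA1 with a log2 difference of 5.02 ± 0.40 and an adjusted p of 0.000351. Fibcd1, a membrane receptor for acetylated compounds, stood at 516, 556 and 606 CPM in CA1 and 25.8 and 34.7 CPM in DG. Fibcd1 was 18.1-fold higher in CA1 with a log2 difference of 4.18 ± 0.25 and an adjusted p of 8.95e-05. Mpped1 had 518, 473 and 460 CPM in CA1 and 25.8 and 11.5 CPM in DG, and Nov, a secreted matricellular protein, had 257, 467 and 195 CPM in CA1 and 1.48 and 1.08 CPM in DG. Nov was 256-fold higher in CA1 with a log2 difference of 8.0 ± 0.58 and an adjusted p of 0.000243. Each of these genes was high in all 3 CA1 libraries and low in both DG libraries. Man1a, a mannosidase of the Golgi, was less even within DG, at 376, 414 and 376 CPM in CA1 and 31 and 4.18 CPM in DG. Man1a was 27.2-fold higher in CA1 with a log2 difference of 4.77 ± 0.70 and an adjusted p of 0.00583. Man1a was not called without CA1 replicate 1 (adjusted p at 0.0635). Man1a had a log2 difference of 6.55 without DG replicate 2. Man1a had a log2 difference of 3.68 without DG replicate 3.

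Among the granule cell markers, Prox1, the homeobox factor of granule cells, stood at 106 and 339 CPM in DG and 10.2, 4.14 and 9.7 CPM in CA1. Prox1 was 30.3-fold higher in DG with a log2 difference of -4.92 ± 0.55 and an adjusted p of 0.00181. C1ql2, a secreted C1q-like protein of mossy fibre synapses, stood at 153 and 530 CPM in DG and 0.927, 1.07 and 3.69 CPM in CA1. C1ql2 was 204-fold higher in DG with a log2 difference of -7.68 ± 0.66 and an adjusted p of 0.000567. Stxbp6, a SNARE-binding protein, had 136 and 437 CPM in DG and 9.73, 5.83 and 9.7 CPM in CA1, and Plk5, a polo-like kinase, had 72.3 and 257 CPM in DG and 0.927, 0.614 and 0.462 CPM in CA1. In each of these genes DG replicate 3 was well above DG replicate 2, and both were above every CA1 library. The 2 members that were not called, Lct and Smad3, overlapped between the regions, with 69.4 and 203 CPM in DG and 114, 38.4 and 138 CPM in CA1 for Lct and 62 and 227 CPM in DG and 105, 118 and 97.4 CPM in CA1 for Smad3. With CA1 replicates 1, 2 and 3 and then DG replicates 2 and 3 left out in turn, 9, 12, 13, 15 and 12 members higher in DG were called. C1ql2 had a log2 difference of -8.33 without CA1 replicate 3. Stxbp6 and Plk5 had log2 differences of -5.17 and -7.94 in the fit of 5 libraries. Prox1, C1ql2, Stxbp6 and Plk5 had log2 differences of -5.57, -8.33, -5.79 and -8.55 without DG replicate 2. Prox1, C1ql2, Stxbp6 and Plk5 had log2 differences of -3.81, -6.48, -4.06 and -6.68 without DG replicate 3.

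**Figure D2:**
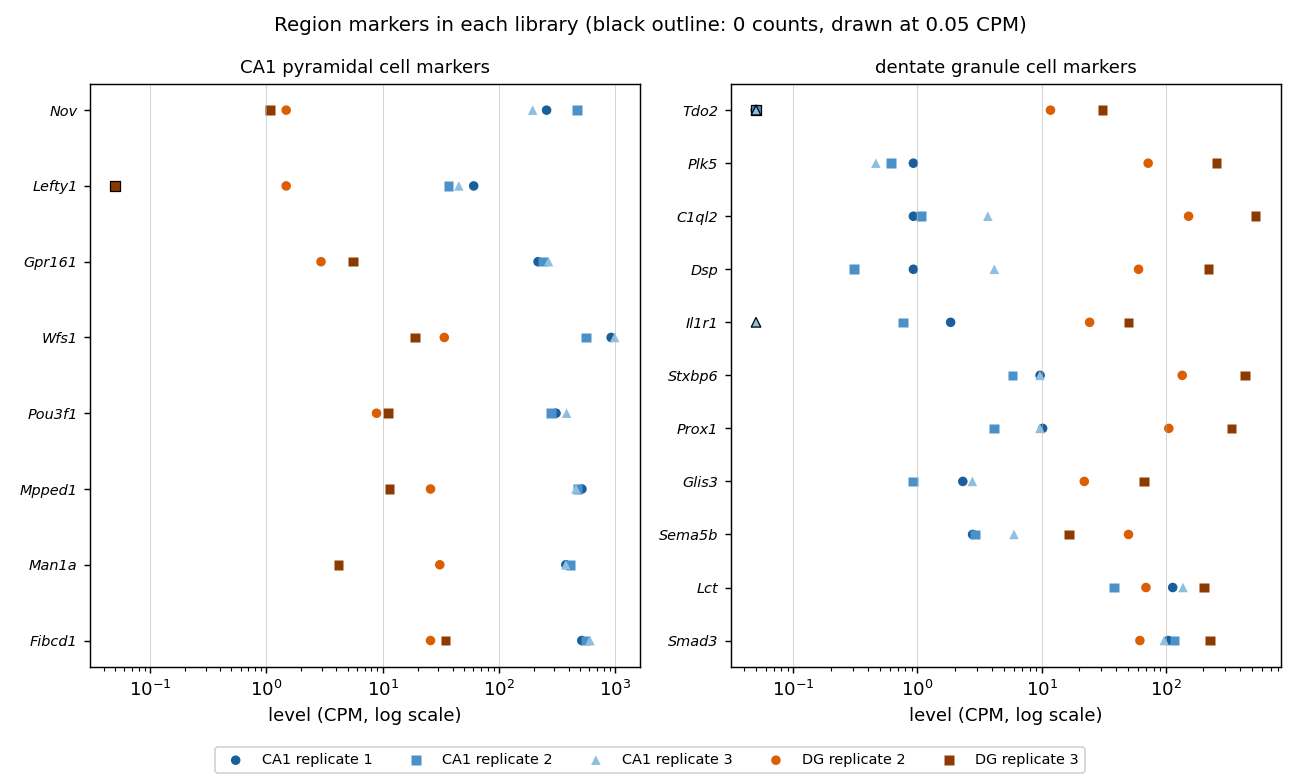
Levels of 8 of the 10 CA1 pyramidal cell markers (left) and 11 of the 16 granule cell markers (right), those named in the text, in each library, in CPM on a log axis, ordered by fitted log2 difference; points with a black outline are 0 counts. The 3 CA1 libraries lie together and apart from the 2 DG libraries for the CA1 markers drawn and for 9 of the granule cell markers drawn, while Lct and Smad3 overlap.

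The sums of the marker lists show where the tissue samples differed in more than their principal cells, and fewer cells of a type cannot be told apart from less RNA per cell in bulk tissue. Summed granule cell markers were 292, 218 and 325 CPM in CA1 and 1050 and 3130 CPM in DG, and summed CA1 markers 3300, 3150 and 3470 CPM in CA1 and 132 and 91.8 CPM in DG. Oligodendrocyte markers summed to 836, 737 and 927 CPM in CA1 and 4200 and 1940 CPM in DG, and 10 of 15 were called higher in DG (median -1.95). Mbp, a myelin protein, was among them (-1.95 ± 0.27), at 1420 and 746 CPM in DG and 269, 259 and 309 CPM in CA1. These 10 calls were lost without CA1 replicate 1, when no oligodendrocyte marker was called, and the list had 0, 4, 6, 7 and 12 members higher in DG as each library was left out. Both DG libraries thus lay above all CA1 libraries in myelin genes as well as in granule cell genes, and the part of the myelin difference in the other calls higher in DG was not tested.

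DG replicate 2 also had higher marker sums of several other cell types than DG replicate 3. The CA3 markers summed to 192, 184 and 212 CPM in CA1 and 736 and 277 CPM in DG, and Bok, a BCL2 family member enriched in CA3 pyramidal cells, stood at 211 and 13 CPM in DG and 8.34, 7.98 and 10.2 CPM in CA1. Bok was 12.3-fold higher in DG with a log2 difference of -3.63 ± 0.89 and an adjusted p of 0.0428. Without DG replicate 2, Bok had an adjusted p of 0.541. Grik4, a kainate receptor subunit, was the other CA3 marker called higher in DG, at 101 and 69 CPM in DG and 6.02, 28.7 and 10.6 CPM in CA1. Grik4 was 5.19-fold higher in DG with a log2 difference of -2.38 ± 0.52 and an adjusted p of 0.0269. Interneuron markers summed to 402, 563 and 518 CPM in CA1 and 1010 and 368 CPM in DG. Sst, the peptide of an interneuron class, had 209 and 3.72 CPM in DG and 15.3, 73.9 and 73 CPM in CA1 and was not called (adjusted p = 0.702). Gad1, a GABA-synthesising enzyme, had 243 and 275 CPM in DG and 108, 169 and 146 CPM in CA1 (adjusted p = 0.0514), whereas Slc32a1, the vesicular GABA transporter, had 73.1 and 3.25 CPM in DG and 46.8, 58.1 and 42 CPM in CA1 (adjusted p = 0.785). Pvalb (17.6, 14.6 and 19.4 CPM in CA1 and 2.95 and 0.155 CPM in DG, 19.2-fold higher in CA1 with a log2 difference of 4.26 ± 0.95 and an adjusted p of 0.0294) and Vip were called higher in CA1. Bok, Grik4 and Pvalb were not called without CA1 replicate 1 (adjusted p from 0.113 to 0.213). Bok and Pvalb were not called without CA1 replicate 2 (adjusted p from 0.0967 to 0.153). Bok, Grik4, Pvalb and Vip were not called without CA1 replicate 3 (adjusted p from 0.0503 to 0.114). Bok was not called without DG replicate 2 (adjusted p at 0.541). Vip had too few counts to be tested without CA1 replicate 2. Grik4 had a log2 difference of -3.32 without CA1 replicate 2. Bok had a log2 difference of -0.55 without DG replicate 2. Bok and Pvalb had log2 differences of -4.57 and 2.54 without DG replicate 3.

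Of the remaining cell types, Ociad2 was the 1 of 3 tested mossy cell markers called, and it was higher in CA1 (177, 201 and 191 CPM in CA1 and 38.4 and 19.7 CPM in DG, 6.88-fold higher in CA1 with a log2 difference of 2.78 ± 0.31 and an adjusted p of 0.0019). The other tested members went the other way, uncalled. Nmb had 22.1 and 4.33 CPM in DG and 4.17, 1.99 and 1.39 CPM in CA1 (adjusted p = 0.148). Calcrl had 5.9 and 5.88 CPM in DG and 5.1, 1.38 and 0.923 CPM in CA1 (adjusted p = 0.414). Drd2, Csf2rb2 and Glp1r were too low to test and had their highest counts, 19, 36 and 5, in DG replicate 2. Calb2, the calcium buffer of mossy cells and interneurons, was too low to test, with 2, 24 and 2 counts in CA1 and 94 and 5 in DG. Among CA2 markers, Rgs14 was called higher in CA1 (151, 204 and 189 CPM in CA1 and 37.6 and 87.3 CPM in DG, 2.82-fold higher in CA1 with a log2 difference of 1.49 ± 0.34 and an adjusted p of 0.0319) and Pcp4, a calmodulin-binding peptide that granule cells also express, higher in DG. Of 4 tested subiculum and neocortex markers (median 1.29), Slc17a6, a vesicular glutamate transporter, was called higher in CA1, with 7.88, 12.3 and 4.62 CPM in CA1 and 0 and 0.155 CPM in DG. Slc17a6 was 77.1-fold higher in CA1, 95% counting interval 13.8 to 3050, adjusted p = 0.0173. Its part in the other calls higher in CA1 was not tested. Kl, the klotho gene, was called higher in CA1 (76.9, 56.8 and 78 CPM in CA1 and 9.59 and 15.8 CPM in DG, 5.23-fold higher in CA1 with a log2 difference of 2.39 ± 0.32 and an adjusted p of 0.0039), while the choroid plexus gene Ttr had 0 counts in all 5 libraries. Of all tested genes edgeR called 7.61%, a rate at which a single list of 5 to 16 members can lack a call. None of 14 astrocyte, 16 microglia, 12 endothelial and mural, or 5 oligodendrocyte precursor markers was called by edgeR or by DESeq2. At an unadjusted p under 0.05 edgeR passed 1 of these, an endothelial or mural marker higher in CA1, and without DG replicate 3 it called 2 astrocyte and 2 oligodendrocyte precursor markers higher in DG. The 9 tested progenitor and immature neuron markers gave 0 calls by edgeR and 2 higher in DG by DESeq2, with 3 higher in DG at an unadjusted p under 0.05. Among the latter markers Dcx, a microtubule protein of immature neurons, had 19.2 and 6.5 CPM in DG and 12.5, 17.8 and 6.46 CPM in CA1, and Sox11 had 15.5 and 31.7 CPM in DG and 4.63, 7.06 and 9.23 CPM in CA1 (adjusted p = 0.051). The remaining listed members were too low to test. Mki67, Top2a, Igfbpl1 and Draxin had 111, 14, 13 and 16 counts in DG replicate 3. In any other library they had at most 10, 3, 1 and 4 counts. Cd24a, Eomes and Calb2 had their highest counts in other libraries. Rgs14 and Slc17a6 were not called without CA1 replicate 1 (adjusted p from 0.0743 to 0.118). Rgs14 and Slc17a6 were not called without CA1 replicate 2 (adjusted p from 0.0755 to 0.109). Rgs14 was not called without CA1 replicate 3 (adjusted p at 0.103). Rgs14 had a log2 difference of 2.3 without DG replicate 3.

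**Figure D3:**
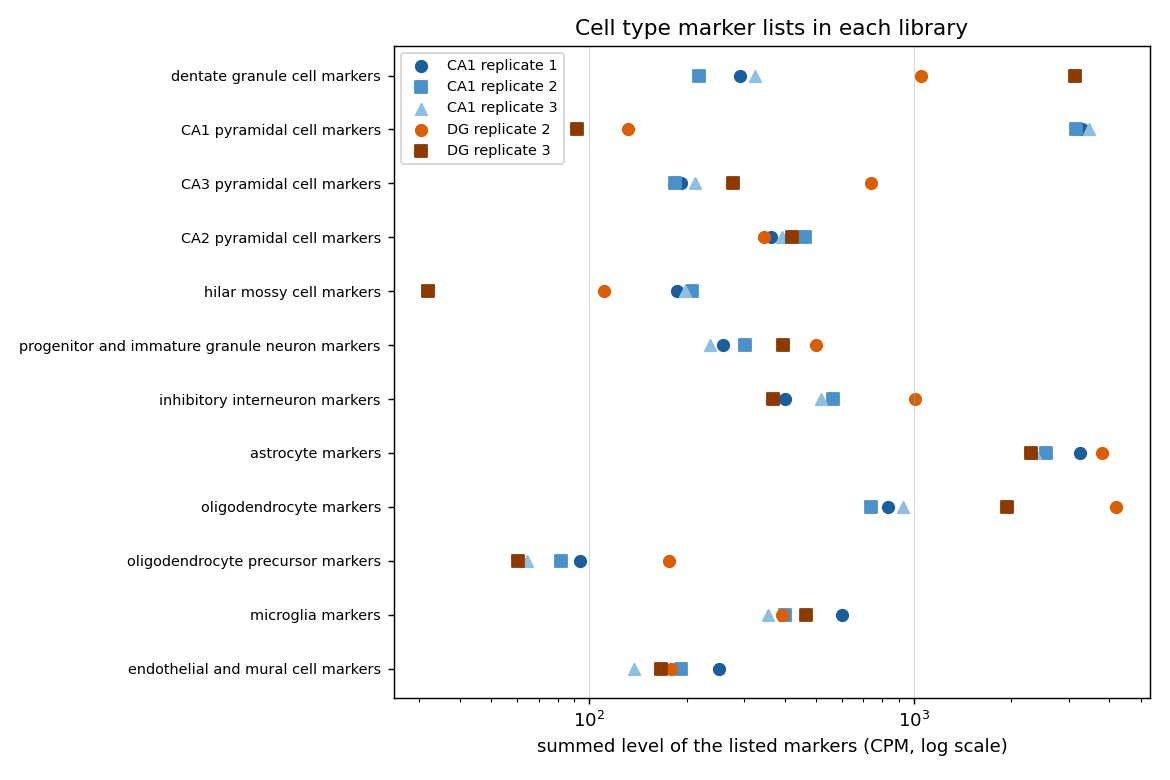
Summed level of the listed markers, tested or not, of 12 cell type lists in each library, in CPM on a log axis. Granule cell and CA1 markers separate the regions, oligodendrocyte markers are higher in both DG libraries than in the 3 CA1 libraries, and DG replicate 2 lies far from DG replicate 3 for CA3, interneuron and oligodendrocyte markers.

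The genes most different by fold, taken from calls averaging 5 CPM or more, had almost no counts in the other region. Those highest in CA1 included Cdh6, Htr5b, Vip, Esr1, Nov, Crhbp, Lefty1, Wnt2, Ankrd63, Ptpru and Ldb2. Cdh6 (GRCm38 chr15:13028701-13173675), a type II cadherin, had 31.5, 13 and 23.5 CPM in CA1 and 0 and 0 CPM in DG. Cdh6 was at least 49-fold higher in CA1, adjusted p = 0.0039. Vip (chr10:5639218-5647617), the vasoactive intestinal peptide of an interneuron class, had 4.17, 18.6 and 11.5 CPM in CA1 and 0 and 0 CPM in DG. Vip was at least 37.2-fold higher in CA1, adjusted p = 0.017. Crhbp (chr13:95431371-95444924), which binds corticotropin-releasing hormone, had 13.4, 21.9 and 57.3 CPM in CA1 and 0 and 0.155 CPM in DG (213-fold higher in CA1, 95% counting interval 38.3 to 8430, adjusted p = 0.00555), and its CA1 libraries differed among themselves. Ptpru (chr4:131768457-131838288), a receptor tyrosine phosphatase, had 220, 203 and 207 CPM in CA1 and 7.38 and 0.619 CPM in DG (91.8-fold higher in CA1 with a log2 difference of 6.52 ± 0.70 and an adjusted p of 0.0016), about as high in each CA1 library. Ankrd63 (chr2:118699103-118703963) had 95, 79.6 and 71.6 CPM in CA1 and 0 and 0.774 CPM in DG. Ankrd63 was 126-fold higher in CA1 with a log2 difference of 6.97 ± 0.48 and an adjusted p of 0.000205. Lefty1 (chr1:180935022-180938400), a secreted inhibitor of Nodal signalling, had 60.7, 36.8 and 45.2 CPM in CA1 and 1.48 and 0 CPM in DG. Lefty1 was 169-fold higher in CA1, 95% counting interval 46.8 to 1400, adjusted p = 0.00231. Ldb2 (chr5:44472132-44799680), a LIM-domain-binding cofactor, had 19.9, 73 and 19.4 CPM in CA1 and 2.21 and 0 CPM in DG. Ldb2 was 135-fold higher in CA1, 95% counting interval 46.1 to 654, adjusted p = 0.0177. Ldb2 was not called without CA1 replicate 1 (adjusted p at 0.0753). Ldb2 was not called without CA1 replicate 2 (adjusted p at 0.0882). Vip was not called without CA1 replicate 3 (adjusted p at 0.0503). Vip had too few counts to be tested without CA1 replicate 2. Ptpru had a log2 difference of 8.36 without DG replicate 2. Ptpru had a log2 difference of 4.85 without DG replicate 3.

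Those highest in DG included Tdo2, Pla2g2f, Plk5, C1ql2, Pcp4, Arsj, Pcsk5, Dsp, Smoc2, Tspan18 and Il1r1. Tdo2 (chr3:81957090-81976202), which opens the indole ring of tryptophan, had 11.8 and 31.1 CPM in DG and 0, 0 and 0 CPM in CA1. Tdo2 was at least 100-fold higher in DG, adjusted p = 0.00576. Pla2g2f (chr4:138750533-138757626), a secreted phospholipase A2, had 4.43 and 26.2 CPM in DG and 0, 0 and 0 CPM in CA1. Pla2g2f was at least 80.9-fold higher in DG, adjusted p = 0.0166. Neither had a count in any CA1 library. Pcp4 (chr16:96467606-96525793) had 78.2 and 146 CPM in DG and 0, 0.767 and 1.85 CPM in CA1. Pcp4 was 130-fold higher in DG with a log2 difference of -7.03 ± 0.56 and an adjusted p of 0.000351. Dsp (chr13:38151294-38198577), the desmosomal protein desmoplakin, had 60.5 and 222 CPM in DG and 0.927, 0.307 and 4.16 CPM in CA1 (105-fold higher in DG with a log2 difference of -6.71 ± 0.81 and an adjusted p of 0.00264), and Il1r1 (chr1:40225080-40317257), the interleukin-1 receptor, had 24.4 and 50.2 CPM in DG and 1.85, 0.767 and 0 CPM in CA1. Il1r1 was 43.5-fold higher in DG with a log2 difference of -5.44 ± 0.68 and an adjusted p of 0.00309. Pcsk5 (chr19:17432319-17837632), a proprotein convertase, had 14.8 and 39.3 CPM in DG and 0, 0 and 0.923 CPM in CA1. Pcsk5 was 190-fold higher in DG, 95% counting interval 52.6 to 1570, adjusted p = 0.00531. Arsj (chr3:126363684-126440375), a sulfatase, had 17.7 and 12.1 CPM in DG and 0, 0.153 and 0 CPM in CA1. Arsj was 142-fold higher in DG, 95% counting interval 25.4 to 5590, adjusted p = 0.00428. Tspan18 (chr2:93201760-93334505), a tetraspanin, had 62 and 29.4 CPM in DG and 0.463, 0.153 and 2.77 CPM in CA1. Tspan18 was 51.2-fold higher in DG with a log2 difference of -5.68 ± 0.80 and an adjusted p of 0.00501. In Arsj and Tspan18 DG replicate 2 exceeded DG replicate 3, and in the other genes of this group given with values DG replicate 3 was the higher. Pla2g2f, Dsp, Pcsk5 and Tspan18 were not called without CA1 replicate 1 (adjusted p from 0.056 to 0.0875). Pla2g2f was not called without CA1 replicate 2 (adjusted p at 0.0659). Pla2g2f had too few counts to be tested without DG replicate 3. Il1r1 had a log2 difference of -6.03 without CA1 replicate 1. Dsp and Tspan18 had log2 differences of -5.78 and -4.74 without CA1 replicate 2. Dsp had a log2 difference of -8.13 without CA1 replicate 3. Dsp and Tspan18 had log2 differences of -7.4 and -5.03 without DG replicate 2. Pcp4, Dsp and Il1r1 had log2 differences of -6.44, -5.35 and -4.74 without DG replicate 3.

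The genes with the smallest p-values combined a large difference with fairly even replicates, which picking by p favours. Higher in CA1 these were Gpr161, Pou3f1, Adgrl2, Ccdc88c, Fibcd1 and Ankrd63. Gpr161 (chr1:165295789-165326745), an orphan receptor that restrains Hedgehog signalling in cilia, had 217, 240 and 267 CPM in CA1 and 2.95 and 5.57 CPM in DG. Gpr161 was 49.8-fold higher in CA1 with a log2 difference of 5.64 ± 0.32 and an adjusted p of 8.47e-05. Ccdc88c (chr12:100911523-101029056), a Dishevelled-binding protein, had 171, 139 and 172 CPM in CA1 and 5.17 and 5.88 CPM in DG. Ccdc88c was 28.1-fold higher in CA1 with a log2 difference of 4.81 ± 0.28 and an adjusted p of 8.95e-05. Higher in DG they included Synpr, Smoc2, Rph3a, Ncald and Cdh9. Synpr (chr14:13284780-13616340), the synaptic vesicle protein synaptoporin of mossy fibre terminals, had 247 and 316 CPM in DG and 13.4, 14.7 and 14.8 CPM in CA1. Synpr was 19.6-fold higher in DG with a log2 difference of -4.29 ± 0.22 and an adjusted p of 8.47e-05. Ncald (chr15:37366175-37792570), the calcium sensor neurocalcin delta, had 561 and 823 CPM in DG and 45.9, 69.8 and 58.2 CPM in CA1. Ncald was 11.9-fold higher in DG with a log2 difference of -3.57 ± 0.26 and an adjusted p of 0.000243. Smoc2 (chr17:14279506-14404790), a secreted calcium-binding matrix protein, had 59 and 83 CPM in DG and 0.927, 0.614 and 0.923 CPM in CA1. Smoc2 was 91-fold higher in DG with a log2 difference of -6.51 ± 0.40 and an adjusted p of 9.04e-05. The DG replicates lay closer together in Synpr, Ncald, Smoc2 and Ccdc88c than in Gpr161, and each of these genes was called in all 5 leave-one-out fits. Gpr161 had a log2 difference of 6.37 without DG replicate 3.

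The sequence around the transcription start is shown for genes from both ends of the fold order that had no counts in the other region. RefSeq promoter sequence (GRCm38.p6, 250 bases before to 50 after the start, gene strand) was held for Cdh6 at chr15:13173626-13173925 and Vip at chr10:5638968-5639267, and for Tdo2 at chr3:81975679-81975978 and Pla2g2f at chr4:138757549-138757848. Capitals mark matches, on either strand, to CAGATG (an E-box bound by neural basic helix-loop-helix factors), ATGCAAAT (the POU octamer), TAATTA (a homeodomain core) or TGACGTCA (the cyclic AMP response element).
Cdh6: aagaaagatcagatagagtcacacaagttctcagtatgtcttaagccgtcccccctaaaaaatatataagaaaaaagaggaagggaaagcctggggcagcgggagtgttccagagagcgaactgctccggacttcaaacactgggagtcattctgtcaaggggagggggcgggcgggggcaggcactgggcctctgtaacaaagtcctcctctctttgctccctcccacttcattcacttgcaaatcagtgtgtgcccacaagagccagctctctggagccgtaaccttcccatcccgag
Vip: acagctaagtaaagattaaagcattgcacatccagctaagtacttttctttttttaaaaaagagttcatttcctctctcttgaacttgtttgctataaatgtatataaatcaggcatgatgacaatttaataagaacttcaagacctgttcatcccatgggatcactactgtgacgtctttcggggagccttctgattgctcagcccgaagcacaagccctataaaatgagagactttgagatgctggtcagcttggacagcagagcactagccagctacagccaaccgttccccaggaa
Tdo2: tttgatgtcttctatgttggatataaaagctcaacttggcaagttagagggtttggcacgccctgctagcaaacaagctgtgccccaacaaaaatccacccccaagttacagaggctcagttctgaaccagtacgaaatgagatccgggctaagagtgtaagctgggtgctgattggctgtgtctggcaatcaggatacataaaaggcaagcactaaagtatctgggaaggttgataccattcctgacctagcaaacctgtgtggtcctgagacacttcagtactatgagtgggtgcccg
Pla2g2f: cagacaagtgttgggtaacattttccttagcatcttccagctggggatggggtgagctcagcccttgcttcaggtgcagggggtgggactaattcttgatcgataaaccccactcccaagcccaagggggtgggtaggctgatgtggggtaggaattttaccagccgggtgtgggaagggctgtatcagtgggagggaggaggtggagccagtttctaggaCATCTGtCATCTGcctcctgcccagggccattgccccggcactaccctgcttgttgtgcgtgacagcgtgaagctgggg
The Pla2g2f sequence held a pair of E-box matches 1 base apart, and the others held no match to the 4 motifs in these windows. Across the promoters of genes called higher in DG, 14.6% of 431 held CAGATG, against 12.2% of 543 for genes called higher in CA1 and 11.4% of 11939 for all tested genes. The POU octamer stood in 1.66% of the promoters of genes higher in CA1, 1.39% of those higher in DG and 1.19% of all tested. TAATTA was held by 2.95%, 3.48% and 2.5% of the same sets. TGACGTCA was held by 1.1% and 1.39% of the called sets and by 3.11% of all tested. Among all 32851 promoters of the table the shares were 17.2%, 1.74%, 5.29% and 1.79% for the 4 motifs in the order given, and a gene can have more than 1 promoter in it.

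Transcription regulators differed in both directions: 12 of 46 tested members were called higher in CA1 and 6 higher in DG (median -0.24), against 4.35% and 3.26% of all tested genes. Pou3f1, a POU-domain factor, stood at 310, 281 and 382 CPM in CA1 and 8.86 and 11.1 CPM in DG. Pou3f1 was 31.2-fold higher in CA1 with a log2 difference of 4.96 ± 0.28 and an adjusted p of 8.47e-05. Meis2, a TALE homeobox factor, stood at 107, 132 and 78.5 CPM in CA1 and 1.48 and 3.87 CPM in DG. Meis2 was 32.6-fold higher in CA1 with a log2 difference of 5.02 ± 0.42 and an adjusted p of 0.00045. Foxp1, a forkhead repressor, differed less, at 167, 159 and 231 CPM in CA1 and 28 and 46.9 CPM in DG. Foxp1 was 4.8-fold higher in CA1 with a log2 difference of 2.26 ± 0.30 and an adjusted p of 0.0039. In DG the called regulators besides Prox1 included Glis3, a Krüppel-like zinc finger factor, at 22.1 and 66.9 CPM in DG and 2.32, 0.92 and 2.77 CPM in CA1 (25.8-fold higher in DG with a log2 difference of -4.69 ± 0.61 and an adjusted p of 0.00376), and Zfpm2, a GATA cofactor, at 68.6 and 54.3 CPM in DG and 3.71, 1.69 and 6 CPM in CA1. Zfpm2 was 17.8-fold higher in DG with a log2 difference of -4.16 ± 0.47 and an adjusted p of 0.00188. Prox1 and these 5 genes were called in all 5 leave-one-out fits. Called members with smaller differences included Etv1 (1.67 ± 0.26), Lmo3 (1.31 ± 0.23) and Bcl11a (1.15 ± 0.22) higher in CA1 and Mef2c (-1.51 ± 0.37) and Id2 (-1.06 ± 0.27) higher in DG. Etv1, Lmo3, Bcl11a, Mef2c and Id2 were not called without CA1 replicate 1 (adjusted p from 0.0621 to 0.198). Bcl11a, Mef2c and Id2 were not called without CA1 replicate 2 (adjusted p from 0.0633 to 0.143). Lmo3, Bcl11a, Mef2c and Id2 were not called without CA1 replicate 3 (adjusted p from 0.0671 to 0.231). Mef2c and Id2 were not called without DG replicate 3 (adjusted p from 0.107 to 0.231). As each library was left out, the list had 4, 7, 5, 16 and 13 members higher in CA1 and 3, 3, 3, 9 and 6 higher in DG. Glis3 and Mef2c had log2 differences of -3.53 and -0.5 without DG replicate 3.

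Of the glutamate receptors and their auxiliary subunits, 7 of 34 tested members were called higher in CA1 and 6 higher in DG (median 0.11). These are shares of 20.6% and 17.6%, against 4.35% and 3.26% of all tested genes. The 2 major NMDA receptor GluN2 subunits were both higher in CA1. Grin2b stood at 2490, 1560 and 2230 CPM in CA1 and 315 and 520 CPM in DG (5-fold higher in CA1 with a log2 difference of 2.32 ± 0.31 and an adjusted p of 0.0039) and Grin2a at 1460, 1050 and 1380 CPM in CA1 and 268 and 422 CPM in DG. Grin2a was 3.74-fold higher in CA1 with a log2 difference of 1.9 ± 0.27 and an adjusted p of 0.00531. The obligatory subunit Grin1 had 1050, 1040 and 1280 CPM in CA1 and 646 and 675 CPM in DG and missed the threshold (log2 difference 0.76 ± 0.20, adjusted p = 0.0509). Per transcript length, Grin2b had a mean of 225 TPM (a length-corrected level) in CA1 and 37.8 TPM in DG, Grin2a 200 and 49.7 TPM, and Grin1 605 and 341 TPM. In both regions Grin1 was thus the highest of the 3, and Grin2a and Grin2b overlapped between libraries.

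AMPA receptor subunits differed by less. Gria1 (0.85 ± 0.20) and Gria3 (1.03 ± 0.19) were called higher in CA1, Gria2 had 0.61 ± 0.23 (adjusted p = 0.151), and the auxiliary subunit Cacng8 was called higher in CA1 (1.13 ± 0.22). Grm5, a postsynaptic metabotropic receptor, was also called higher in CA1 (467, 415 and 444 CPM in CA1 and 164 and 222 CPM in DG, 1.19 ± 0.21). The members called higher in DG included the presynaptic metabotropic receptor Grm2 (35.4 and 226 CPM in DG and 6.02, 12.9 and 5.08 CPM in CA1, 15.4-fold higher in DG with a log2 difference of -3.95 ± 0.68 and an adjusted p of 0.0118), the kainate receptor subunits Grik4, Grik3 (-1.94 ± 0.49) and Grik2 (-1.32 ± 0.30), and the AMPA receptor auxiliary Shisa9 (-2.17 ± 0.54). Grik4 is also a CA3 marker, and the CA3 markers summed highest in DG replicate 2. Grin2b, Grin2a, Gria1, Gria3, Cacng8, Grm5, Grm2, Grik3, Grik2 and Shisa9 were not called without CA1 replicate 1 (adjusted p from 0.0538 to 0.208). Gria1, Gria3, Grik3 and Grik2 were not called without CA1 replicate 2 (adjusted p from 0.0537 to 0.176). Gria1, Gria3, Cacng8, Grm5, Grik3, Grik2 and Shisa9 were not called without CA1 replicate 3 (adjusted p from 0.0662 to 0.182). Grik3, Grik2 and Shisa9 were not called without DG replicate 3 (adjusted p from 0.0944 to 0.41). The whole list had 0, 4, 2, 13 and 9 members higher in CA1 and 0, 4, 1, 6 and 6 higher in DG as CA1 replicates 1, 2 and 3 and DG replicates 2 and 3 were left out in turn. Grm2 and Shisa9 had log2 differences of -4.56 and -3.19 without CA1 replicate 2. Grm2 had a log2 difference of -4.62 without DG replicate 2. Grm2, Grik3 and Grik2 had log2 differences of -2.03, -0.78 and -0.69 without DG replicate 3.

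GABA receptor subunits leaned towards CA1: 6 of 14 tested members were called higher in CA1 and 1 higher in DG (median 0.69). The share higher in CA1 is 42.9% against 4.35% of all tested genes. The 1 call higher in DG makes 7.14% against 3.26%. Gabra3, an alpha subunit of GABA-A receptors, stood at 57.9, 66.6 and 60.5 CPM in CA1 and 7.38 and 2.01 CPM in DG (17.2-fold higher in CA1 with a log2 difference of 4.11 ± 0.50 and an adjusted p of 0.00266), and it was called in all 5 leave-one-out fits. Gabra5, the subunit of extrasynaptic receptors in CA1 dendrites, was also called higher in CA1 (1.08 ± 0.22), while Gabra2 (0.66 ± 0.25, adjusted p = 0.154) and Gabra4 (0.03 ± 0.34, adjusted p = 0.965) were not called. Per length, these 4 alpha subunits had mean levels in CA1 of 277 TPM for Gabra5, 83 TPM for Gabra4, 68.4 TPM for Gabra2 and 39.6 TPM for Gabra3. In DG the means were 125 TPM for Gabra5, 64.1 TPM for Gabra4, 41.6 TPM for Gabra2 and 2.85 TPM for Gabra3. Gabra2 and Gabra4 overlapped between libraries in both regions, and the steps from Gabra5 to this pair and down to Gabra3 exceeded the spread. The single member called higher in DG was Gabrd, the delta subunit of extrasynaptic receptors on granule cells, at 38.4 and 87.3 CPM in DG and 16.2, 14 and 21.7 CPM in CA1. Gabrd was 3.77-fold higher in DG with a log2 difference of -1.91 ± 0.38 and an adjusted p of 0.0182. Gabrd and Gabra5 were not called without CA1 replicate 1 (adjusted p from 0.0929 to 0.124). Gabrd and Gabra5 were not called without CA1 replicate 2 (adjusted p from 0.0697 to 0.0914). Gabra5 was not called without CA1 replicate 3 (adjusted p at 0.116). Gabrd was not called without DG replicate 3 (adjusted p at 0.0871). The list had 3, 3, 3, 6 and 10 members higher in CA1 and 0, 0, 1, 1 and 0 higher in DG in the leave-one-out fits, in library order. Gabra3 had a log2 difference of 4.94 without DG replicate 2. Gabra3 and Gabrd had log2 differences of 3.09 and -1.14 without DG replicate 3.

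Among potassium channels, 10 of 58 tested members were called higher in CA1 and 3 higher in DG (median 0.21). The share higher in CA1 is 17.2% against 4.35% of all tested genes, and the share higher in DG, 5.17%, is near the 3.26%. Kcnh7, an ERG-type channel, stood at 418, 210 and 398 CPM in CA1 and 23.6 and 16.3 CPM in DG. Kcnh7 was 17.8-fold higher in CA1 with a log2 difference of 4.15 ± 0.39 and an adjusted p of 0.000914. Kcnd2, an A-type channel of pyramidal cell dendrites, stood at 360, 253 and 383 CPM in CA1 and 85.6 and 114 CPM in DG. Kcnd2 was 3.3-fold higher in CA1 with a log2 difference of 1.72 ± 0.26 and an adjusted p of 0.00635. The M-current subunit Kcnq3 (1.47 ± 0.27), the calcium-activated channels Kcnma1 (1.57 ± 0.22) and Kcnn2 (1.87 ± 0.34), and the beta subunits Kcnab1 (1.54 ± 0.27) and Kcnab2 (1.2 ± 0.20) were also called higher in CA1. In the other direction Kcnc4, a Kv3 family channel, stood at 66.4 and 142 CPM in DG and 6.02, 8.28 and 2.31 CPM in CA1 (17.6-fold higher in DG with a log2 difference of -4.13 ± 0.47 and an adjusted p of 0.0019), and the silent subunit Kcng1 at 50.2 and 80 CPM in DG and 0, 4.14 and 8.31 CPM in CA1. Kcng1 was 15.8-fold higher in DG with a log2 difference of -3.98 ± 0.69 and an adjusted p of 0.0119. Kcnd2, Kcnq3, Kcnma1, Kcnn2, Kcnab1 and Kcnab2 were not called without CA1 replicate 1 (adjusted p from 0.0514 to 0.111). Kcnn2 and Kcng1 were not called without CA1 replicate 2 (adjusted p from 0.0608 to 0.0689). Kcnq3, Kcnab1 and Kcnab2 were not called without CA1 replicate 3 (adjusted p from 0.0526 to 0.0645). Calls in the list numbered 1, 7, 4, 16 and 14 members higher in CA1 and 2, 1, 2, 9 and 3 higher in DG over the leave-one-out fits. Kcng1 had a log2 difference of -4.61 without CA1 replicate 3. Kcnc4 had a log2 difference of -3.44 without DG replicate 3.

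For sodium, calcium and HCN channels, 10 of 29 tested members were called higher in CA1 and 1 higher in DG (median 0.77). The share higher in CA1 is 34.5% against 4.35% of all tested genes, and the share higher in DG, 3.45%, is near the 3.26%. Hcn2, a hyperpolarisation-activated channel, had 249, 210 and 231 CPM in CA1 and 162 and 121 CPM in DG and was not called (adjusted p = 0.0855). The T-type calcium channel Cacna1i stood at 235, 153 and 239 CPM in CA1 and 67.9 and 46.1 CPM in DG (3.72-fold higher in CA1 with a log2 difference of 1.89 ± 0.29 and an adjusted p of 0.00703), and its paralog Cacna1g differed by 1.25 ± 0.28. The auxiliary subunit Cacnb2 (1.38 ± 0.23), the ryanodine receptor Ryr3 (1.51 ± 0.29) and the sodium channel subunits Scn1a (1.14 ± 0.22), Scn2a1 (0.87 ± 0.21) and Scn3b (1.06 ± 0.24) were called higher in CA1. Cacna1c, an L-type calcium channel, was the single member called higher in DG, at 162 and 220 CPM in DG and 89.4, 98.2 and 92.8 CPM in CA1. Cacna1c was 2.05-fold higher in DG with a log2 difference of -1.03 ± 0.21 and an adjusted p of 0.0203. Cacna1i, Cacna1g, Cacnb2, Ryr3, Scn1a, Scn2a1, Scn3b and Cacna1c were not called without CA1 replicate 1 (adjusted p from 0.0659 to 0.178). Cacna1g, Scn1a, Scn2a1 and Cacna1c were not called without CA1 replicate 2 (adjusted p from 0.0635 to 0.101). Cacna1g, Ryr3, Scn1a, Scn2a1, Scn3b and Cacna1c were not called without CA1 replicate 3 (adjusted p from 0.0595 to 0.182). The list gave 0, 5, 2, 17 and 13 members higher in CA1 and 0, 0, 0, 5 and 1 higher in DG as libraries were left out, so no call in it held without CA1 replicate 1.

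Calcium handling genes and calcium-regulated kinases were called in both directions, with 3, 7, 5, 19 and 16 members higher in CA1 and 3, 3, 3, 5 and 7 higher in DG in the leave-one-out fits. In the fit of 5 libraries, 11 of 38 tested members were called higher in CA1 and 4 higher in DG (median 0.58). That is 28.9% and 10.5% of the list, against 4.35% and 3.26% of all tested genes. Itpr1, the intracellular inositol trisphosphate receptor, stood at 1340, 1140 and 1230 CPM in CA1 and 149 and 262 CPM in DG (5.97-fold higher in CA1 with a log2 difference of 2.58 ± 0.28 and an adjusted p of 0.00181), and the kinase Itpka, which phosphorylates inositol trisphosphate, at 752, 804 and 793 CPM in CA1 and 199 and 276 CPM in DG. Itpka was 3.29-fold higher in CA1 with a log2 difference of 1.72 ± 0.22 and an adjusted p of 0.00336. Atp2b1, a plasma membrane calcium pump, stood at 3360, 2390 and 3490 CPM in CA1 and 688 and 706 CPM in DG (4.42-fold higher in CA1 with a log2 difference of 2.14 ± 0.24 and an adjusted p of 0.00188), and its paralog Atp2b2 was not called (0.25 ± 0.23, adjusted p = 0.576). The paralog Atp2b4 was called higher in DG in counts (55.3 and 82.2 CPM in DG and 13, 15 and 12.5 CPM in CA1, 5.09-fold higher in DG with a log2 difference of -2.35 ± 0.28 and an adjusted p of 0.00264), but in TPM it was higher in CA1, with means of 75.6 TPM in CA1 and 51.4 TPM in DG. A 243-base transcript of Atp2b4 with 1.88 to 15.2 estimated counts per library held 60.8% to 97.7% of that TPM, so the direction of this gene depends on the unit.

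Of the CaMKII genes, Camk2d (59.8 and 57.4 CPM in DG and 5.56, 11.5 and 8.31 CPM in CA1, 6.64-fold higher in DG with a log2 difference of -2.73 ± 0.34 and an adjusted p of 0.00282) and Camk2g (-1.37 ± 0.27) were called higher in DG, whereas Camk2a (0.51 ± 0.29, adjusted p = 0.346) and Camk2b (-0.15 ± 0.27, adjusted p = 0.804) were not called. Per length the mean levels in DG were 1270 TPM for Camk2a, 1200 TPM for Camk2b, 133 TPM for Camk2g and 38.4 TPM for Camk2d. Camk2a and Camk2b overlapped between the DG libraries, and Camk2d was the lowest of the 4, with 4.78 TPM in CA1. The protein kinase C genes Prkcb (1170, 844 and 1180 CPM in CA1 and 232 and 105 CPM in DG, 6.37-fold higher in CA1 with a log2 difference of 2.67 ± 0.36 and an adjusted p of 0.00432) and Prkca (1.73 ± 0.39) were called higher in CA1. Camk2g, Prkcb and Prkca were not called without CA1 replicate 1 (adjusted p from 0.056 to 0.161). Camk2g and Prkca were not called without CA1 replicate 2 (adjusted p from 0.0574 to 0.0921). Camk2g and Prkca were not called without CA1 replicate 3 (adjusted p from 0.0516 to 0.102). Prkcb and Prkca had log2 differences of 3.35 and 2.51 without DG replicate 2.

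Synaptic adhesion molecules were called in both directions: 7 of 34 tested members were called higher in CA1 and 6 higher in DG (median 0.48). Their shares are 20.6% and 17.6%, against 4.35% and 3.26% of all tested genes. Adgrl2, the latrophilin that shapes entorhinal synapses on CA1 dendrites, stood at 242, 183 and 215 CPM in CA1 and 7.38 and 7.12 CPM in DG (29.4-fold higher in CA1 with a log2 difference of 4.88 ± 0.28 and an adjusted p of 8.47e-05), and its paralog Adgrl3 at 218, 171 and 211 CPM in CA1 and 50.2 and 70.3 CPM in DG. Adgrl3 was 3.27-fold higher in CA1 with a log2 difference of 1.71 ± 0.24 and an adjusted p of 0.00514. Flrt2 and Flrt3, FLRT proteins that bind latrophilins, differed in opposite directions, Flrt2 at 89.4, 73.3 and 84 CPM in CA1 and 31 and 27.9 CPM in DG (1.49 ± 0.24) and Flrt3 at 52.4 and 52.3 CPM in DG and 7.41, 13.5 and 12.9 CPM in CA1 (-2.19 ± 0.32). Cntnap2, a neurexin-related protein, stood at 394, 293 and 351 CPM in CA1 and 61.2 and 14.9 CPM in DG (9.86-fold higher in CA1 with a log2 difference of 3.3 ± 0.53 and an adjusted p of 0.00857), and Nlgn1, a neuroligin, at 109, 112 and 127 CPM in CA1 and 42.1 and 36.5 CPM in DG. Nlgn1 was 2.98-fold higher in CA1 with a log2 difference of 1.57 ± 0.22 and an adjusted p of 0.00521. Besides C1ql2, its relative C1ql3 (-1.57 ± 0.32), the heparan sulfate-binding Lrrtm4 (28 and 126 CPM in DG and 1.39, 5.52 and 7.39 CPM in CA1, 16.1-fold higher in DG with a log2 difference of -4.01 ± 0.66 and an adjusted p of 0.00929), the netrin-G Ntng1 (-4.82 ± 0.83) and the immunoglobulin protein Kirrel3 (-1.94 ± 0.45) were called higher in DG. Adgrl3, Flrt2, Cntnap2, Lrrtm4, Ntng1, C1ql3 and Kirrel3 were not called without CA1 replicate 1 (adjusted p from 0.0559 to 0.152). Lrrtm4 and C1ql3 were not called without CA1 replicate 2 (adjusted p from 0.0528 to 0.086). C1ql3 and Kirrel3 were not called without CA1 replicate 3 (adjusted p from 0.0793 to 0.12). Ntng1 and Kirrel3 were not called without DG replicate 3 (adjusted p from 0.0633 to 0.0777). The leave-one-out fits called 2, 6, 6, 14 and 9 members higher in CA1 and 2, 4, 4, 9 and 4 higher in DG. Cntnap2, Lrrtm4 and Ntng1 had log2 differences of 4.55, -4.64 and -5.42 without DG replicate 2. Cntnap2, C1ql3, Lrrtm4 and Ntng1 had log2 differences of 2.53, -0.79, -2.49 and -3.37 without DG replicate 3.

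Among cadherins and protocadherins, 3 of 21 tested members were called higher in CA1 and 2 higher in DG (median 0.19). These few calls make 14.3% and 9.52%, against 4.35% and 3.26% of all tested genes. Cdh6, with no counts in DG, had its counterpart in Cdh9, another type II cadherin, at 48.7 and 69.4 CPM in DG and 1.39, 1.53 and 2.77 CPM in CA1. Cdh9 was 32.4-fold higher in DG with a log2 difference of -5.02 ± 0.40 and an adjusted p of 0.000351. Pcdh8 was called higher in DG (99.6 and 456 CPM in DG and 36.6, 65.7 and 29.6 CPM in CA1, -2.65 ± 0.56), and Pcdh10 (1.51 ± 0.32) and Pcdh19 (0.97 ± 0.23) higher in CA1. Pcdh8, Pcdh10 and Pcdh19 were not called without CA1 replicate 1 (adjusted p from 0.122 to 0.166). Pcdh8, Pcdh10 and Pcdh19 were not called without CA1 replicate 2 (adjusted p from 0.0529 to 0.101). Pcdh8, Pcdh10 and Pcdh19 were not called without CA1 replicate 3 (adjusted p from 0.0868 to 0.165). Pcdh8 was not called without DG replicate 3 (adjusted p at 0.078). With 1 library left out, in library order, the list had 1, 1, 1, 6 and 6 members higher in CA1 and 1, 1, 1, 2 and 1 higher in DG. Pcdh8 had a log2 difference of -3.29 without DG replicate 2. Pcdh8 had a log2 difference of -1.1 without DG replicate 3.

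For axon guidance genes, 8 of 50 tested members were called higher in CA1 and 5 higher in DG (median 0.1). The called shares are 16% and 10%, against 4.35% and 3.26% of all tested genes. Sema3a, a secreted repellent, stood at 16.2, 15.2 and 18.5 CPM in CA1 and 0.738 and 0.774 CPM in DG (20.8-fold higher in CA1 with a log2 difference of 4.38 ± 0.61 and an adjusted p of 0.00481), and the transmembrane semaphorin Sema5a at 165 and 417 CPM in DG and 5.56, 9.51 and 13.4 CPM in CA1. Sema5a was 30.8-fold higher in DG with a log2 difference of -4.95 ± 0.45 and an adjusted p of 0.000729. Its relative Sema5b was also called higher in DG (-3.09 ± 0.59). The Eph receptors Epha6 (356, 214 and 343 CPM in CA1 and 53.9 and 31.9 CPM in DG, 7.29-fold higher in CA1 with a log2 difference of 2.87 ± 0.34 and an adjusted p of 0.00245) and Ephb3 (2.61 ± 0.61) were called higher in CA1, and Ephb1 (39.1 and 27.9 CPM in DG and 6.02, 6.14 and 6.93 CPM in CA1, 5.2-fold higher in DG with a log2 difference of -2.38 ± 0.36 and an adjusted p of 0.00661) higher in DG. Of the receptors for semaphorins, Plxna1 (2.29 ± 0.52), Plxna2 (1.17 ± 0.21) and Plxnc1 (1.15 ± 0.27) were called higher in CA1 and Nrp2 (-1.67 ± 0.29) higher in DG. Sema5b, Ephb3, Ephb1, Plxna1, Plxna2, Plxnc1 and Nrp2 were not called without CA1 replicate 1 (adjusted p from 0.0514 to 0.159). Sema5b, Ephb3, Plxna1, Plxnc1 and Nrp2 were not called without CA1 replicate 2 (adjusted p from 0.0519 to 0.14). Ephb3, Plxna1, Plxna2 and Plxnc1 were not called without CA1 replicate 3 (adjusted p from 0.0645 to 0.166). Plxnc1 was not called without DG replicate 3 (adjusted p at 0.0712). Calls in the list were 3, 3, 2, 16 and 11 members higher in CA1 and 1, 2, 5, 6 and 5 higher in DG as libraries were left out. Sema5b, Ephb3 and Plxna1 had log2 differences of -2.1, 3.92 and 3.68 without DG replicate 2. Sema5a, Sema5b, Ephb3 and Plxna1 had log2 differences of -4.08, -3.7, 1.63 and 1.58 without DG replicate 3.

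Of receptors for neuromodulators, 7 of 25 tested members were called higher in CA1 and 0 higher in DG, with a median log2 difference of 1.23. The share higher in CA1 is 28% against 4.35% of all tested genes. The share higher in DG is 0% against 3.26%, and a list of 25 can lack such a call at that rate. DESeq2 also called none higher in DG, and 1 member was higher in DG at an unadjusted p under 0.05 in edgeR. The serotonin receptors led. Htr5b had 12.5, 19.3 and 11.5 CPM in CA1 and 0 and 0 CPM in DG (at least 42.8-fold higher in CA1, adjusted p = 0.00521), Htr1b 33.4, 29.6 and 48.5 CPM in CA1 and 0 and 0.774 CPM in DG (57.3-fold higher in CA1 with a log2 difference of 5.84 ± 0.61 and an adjusted p of 0.00145) and Htr2c 34.7, 53.7 and 32.3 CPM in CA1 and 1.48 and 0.464 CPM in DG. Htr2c was 57.1-fold higher in CA1 with a log2 difference of 5.84 ± 0.58 and an adjusted p of 0.00112. Htr1a, the inhibitory receptor of pyramidal cells, had 73.7, 41.4 and 73 CPM in CA1 and 7.38 and 7.9 CPM in DG. Htr1a was 8.03-fold higher in CA1 with a log2 difference of 3.0 ± 0.37 and an adjusted p of 0.00284. These 4 genes were called in all 5 leave-one-out fits, and 3 of them had under 2 CPM in both DG libraries. Htr4 was not called, with 24.1, 8.13 and 9.23 CPM in CA1 and 14 and 26.5 CPM in DG (adjusted p = 0.544). The muscarinic receptors Chrm1 (418, 391 and 383 CPM in CA1 and 205 and 218 CPM in DG, 0.91 ± 0.19) and Chrm4 (2.96 ± 0.60) and the adrenergic receptor Adra2c (1.38 ± 0.25) were called higher in CA1. Drd1, the D1 dopamine receptor, was the member lowest in CA1 relative to DG, with 5.17 and 7.12 CPM in DG and 0, 0.767 and 0 CPM in CA1 (adjusted p = 0.0592). Chrm1, Chrm4 and Adra2c were not called without CA1 replicate 1 (adjusted p from 0.0623 to 0.125). Chrm1, Chrm4 and Adra2c were not called without CA1 replicate 2 (adjusted p from 0.0685 to 0.108). Chrm1, Chrm4 and Adra2c were not called without CA1 replicate 3 (adjusted p from 0.0794 to 0.106). The leave-one-out counts were 4, 4, 4, 15 and 8 members higher in CA1. Chrm4 had a log2 difference of 2.27 without DG replicate 3.

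Nuclear receptors and glucocorticoid targets likewise had 0, 4, 4, 5 and 7 members higher in CA1 and 0, 0, 0, 3 and 0 higher in DG in the leave-one-out fits, and in the fit of 5 libraries 5 of 15 tested members were called higher in CA1 and 0 higher in DG (median 0.35). The 5 calls make a share of 33.3% against 4.35% of all tested genes. The share higher in DG is 0% against 3.26%, and a list of 15 can lack such a call at that rate. DESeq2 called 0 of them higher in DG, and edgeR had 1 higher in DG at an unadjusted p under 0.05. Esr1, the oestrogen receptor alpha, had 13, 9.66 and 5.54 CPM in CA1 and 0 and 0 CPM in DG. Esr1 was at least 24.7-fold higher in CA1, adjusted p = 0.0143. The retinoic acid receptor Rara had 46.8, 34.5 and 43.4 CPM in CA1 and 10.3 and 4.03 CPM in DG (6.65-fold higher in CA1 with a log2 difference of 2.73 ± 0.45 and an adjusted p of 0.00919), and the thyroid hormone receptor Thrb 96.4, 71.5 and 84 CPM in CA1 and 22.9 and 10.1 CPM in DG. Thrb was 5.55-fold higher in CA1 with a log2 difference of 2.47 ± 0.38 and an adjusted p of 0.00661. Nr3c2, the mineralocorticoid receptor, had 480, 359 and 448 CPM in CA1 and 117 and 191 CPM in DG (2.76-fold higher in CA1 with a log2 difference of 1.47 ± 0.27 and an adjusted p of 0.0139), while Nr3c1, the glucocorticoid receptor, had 119, 115 and 146 CPM in CA1 and 40.6 and 83.8 CPM in DG and was not called (0.99 ± 0.31, adjusted p = 0.0946). Esr1, Rara, Thrb and Nr3c2 were not called without CA1 replicate 1 (adjusted p from 0.0623 to 0.0987). Esr1 was not called without CA1 replicate 2 (adjusted p at 0.0564). Nr3c2 was not called without CA1 replicate 3 (adjusted p at 0.0566). Rara and Thrb had log2 differences of 3.36 and 3.07 without DG replicate 2. Rara had a log2 difference of 2.02 without DG replicate 3.

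Of neuropeptides and growth factors, 1 of 21 tested members were called higher in CA1 and 3 higher in DG (median -0.44). These are shares of 4.76% and 14.3%, of which the first is near the 4.35% of all tested genes and the second above the 3.26%. With 1 library left out the list had 1, 0, 0, 7 and 2 members higher in CA1 and 0, 1, 2, 6 and 4 higher in DG. Ntf3, neurotrophin-3, had 6.64 and 13.6 CPM in DG and 0, 0 and 0 CPM in CA1. Ntf3 was at least 44.9-fold higher in DG, adjusted p = 0.0143. Pdyn, the dynorphin precursor of mossy fibres, had 17.7 and 87.2 CPM in DG and 2.32, 0.46 and 3.23 CPM in CA1. Pdyn was 33.3-fold higher in DG with a log2 difference of -5.06 ± 0.81 and an adjusted p of 0.00828. Bdnf had 72.3 and 192 CPM in DG and 73.2, 74.9 and 85.9 CPM in CA1 (adjusted p = 0.234) and Penk, the enkephalin precursor, 7.38 and 82.4 CPM in DG and 32, 35.3 and 42 CPM in CA1 (adjusted p = 0.771). In both of these DG replicate 3 was above and DG replicate 2 at or below the CA1 libraries. Ntf3 and Pdyn were not called without CA1 replicate 1 (adjusted p from 0.0613 to 0.0819). Ntf3 was not called without CA1 replicate 2 (adjusted p at 0.0546). Vip was not called without CA1 replicate 3 (adjusted p at 0.0503). Pdyn was not called without DG replicate 3 (adjusted p at 0.0651). Vip had too few counts to be tested without CA1 replicate 2. Ntf3 had too few counts to be tested without DG replicate 3. Pdyn had a log2 difference of -4.25 without CA1 replicate 2. Pdyn had a log2 difference of -5.65 without CA1 replicate 3. Pdyn had a log2 difference of -5.79 without DG replicate 2. Pdyn had a log2 difference of -3.25 without DG replicate 3.

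Genes of synaptic vesicles and release were mostly not called: 2 of 36 tested members were called higher in CA1 and 3 higher in DG (median 0.21). The share higher in CA1, 5.56%, is near the 4.35% of all tested genes, and the share higher in DG is 8.33% against 3.26%. Rph3a, rabphilin, stood at 544 and 499 CPM in DG and 61.2, 68.6 and 51.7 CPM in CA1 (8.58-fold higher in DG with a log2 difference of -3.1 ± 0.21 and an adjusted p of 0.000165), in all 5 leave-one-out fits. Sv2c had 21.4 and 116 CPM in DG and 13, 3.99 and 8.31 CPM in CA1 (9.02-fold higher in DG with a log2 difference of -3.17 ± 0.67 and an adjusted p of 0.0246) and Syt13 294 and 276 CPM in DG and 90.3, 132 and 79.9 CPM in CA1 (-1.49 ± 0.24), while the active-zone protein Pclo differed by 0.96 ± 0.25 and Syt12 by 1.6 ± 0.32. Sv2c, Syt13, Pclo and Syt12 were not called without CA1 replicate 1 (adjusted p from 0.0926 to 0.21). Sv2c, Pclo and Syt12 were not called without CA1 replicate 2 (adjusted p from 0.0604 to 0.102). Sv2c, Syt13, Pclo and Syt12 were not called without CA1 replicate 3 (adjusted p from 0.0516 to 0.197). Sv2c and Pclo were not called without DG replicate 3 (adjusted p from 0.0512 to 0.219). The list had 0, 0, 0, 14 and 4 members higher in CA1 and 1, 2, 1, 5 and 6 higher in DG in the fits on 4 libraries. Sv2c had a log2 difference of -3.91 without DG replicate 2. Sv2c had a log2 difference of -1.37 without DG replicate 3.

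Among immediate early genes, which neurons induce within minutes of activity, 1 of 25 tested members were called higher in CA1 and 5 higher in DG (median -0.24). The share higher in CA1, 4%, is near the 4.35% of all tested genes, and the share higher in DG is 20% against 3.26%. Fos stood at 508 and 830 CPM in DG and 261, 244 and 315 CPM in CA1 (2.45-fold higher in DG with a log2 difference of -1.29 ± 0.25 and an adjusted p of 0.0164), Jun at 420 and 563 CPM in DG and 182, 194 and 199 CPM in CA1 (2.57-fold higher in DG with a log2 difference of -1.36 ± 0.20 and an adjusted p of 0.00576) and Fosb at 320 and 813 CPM in DG and 165, 164 and 277 CPM in CA1. Fosb was 2.83-fold higher in DG with a log2 difference of -1.5 ± 0.38 and an adjusted p of 0.0488. Dusp6, a phosphatase of ERK kinases, was the member called higher in CA1, at 125, 177 and 233 CPM in CA1 and 63.5 and 83.3 CPM in DG. Dusp6 was 2.41-fold higher in CA1 with a log2 difference of 1.27 ± 0.29 and an adjusted p of 0.0342. Arc (519, 501 and 534 CPM in CA1 and 116 and 291 CPM in DG, adjusted p = 0.0514), Egr1 (548, 522 and 811 CPM in CA1 and 522 and 730 CPM in DG, adjusted p = 1) and Npas4 (205, 364 and 519 CPM in CA1 and 30.3 and 571 CPM in DG, adjusted p = 0.899) were not called; Npas4 was far lower in DG replicate 2 than in DG replicate 3. Fos, Jun, Fosb and Dusp6 were not called without CA1 replicate 1 (adjusted p from 0.0663 to 0.244). Fos, Fosb and Dusp6 were not called without CA1 replicate 2 (adjusted p from 0.0834 to 0.172). Fos, Fosb and Dusp6 were not called without CA1 replicate 3 (adjusted p from 0.0523 to 0.143). Fosb was not called without DG replicate 3 (adjusted p at 0.152). The leave-one-out fits gave 0, 0, 0, 3 and 9 members higher in CA1 and 0, 1, 2, 10 and 2 higher in DG. Fosb had a log2 difference of -0.64 without DG replicate 3.

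Of BMP, TGF-beta and Wnt genes, 2 of 32 tested members were called higher in CA1 and 3 higher in DG (median 0.01), or 6.25% and 9.38%. Among all tested genes the shares were 4.35% and 3.26%, so the share higher in CA1 is near that of all genes. Wnt2 had 30.6, 14.4 and 21.7 CPM in CA1 and 0.738 and 0 CPM in DG (149-fold higher in CA1, 95% counting interval 26.8 to 5890, adjusted p = 0.00555), and Bmpr2, a BMP receptor, 398, 264 and 360 CPM in CA1 and 139 and 161 CPM in DG (1.17 ± 0.24). Bambi, a decoy receptor, had 9.59 and 41.3 CPM in DG and 4.17, 1.38 and 2.31 CPM in CA1 (10.9-fold higher in DG with a log2 difference of -3.45 ± 0.70 and an adjusted p of 0.0203), and Wnt7b 59 and 59.8 CPM in DG and 20.8, 28.8 and 13.4 CPM in CA1 (-1.47 ± 0.33). Wnt2, Bmpr2, Bambi and Wnt7b were not called without CA1 replicate 1 (adjusted p from 0.0549 to 0.145). Bambi was not called without CA1 replicate 2 (adjusted p at 0.0976). Bmpr2, Bambi and Wnt7b were not called without CA1 replicate 3 (adjusted p from 0.0789 to 0.108). Bambi was not called without DG replicate 3 (adjusted p at 0.298). In library order, the leave-one-out fits called 0, 2, 1, 4 and 6 members higher in CA1 and 0, 2, 0, 7 and 1 higher in DG. None of 14 cholesterol and fatty acid synthesis genes was called by edgeR or DESeq2 (median -0.12), with 1 higher in CA1 and 3 higher in DG at an unadjusted p under 0.05. Of all tested genes edgeR called 7.61%, and a list of 14 can lack a call at that rate. Bambi had a log2 difference of -4.11 without DG replicate 2. Bambi had a log2 difference of -1.9 without DG replicate 3.

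**Figure D4:**
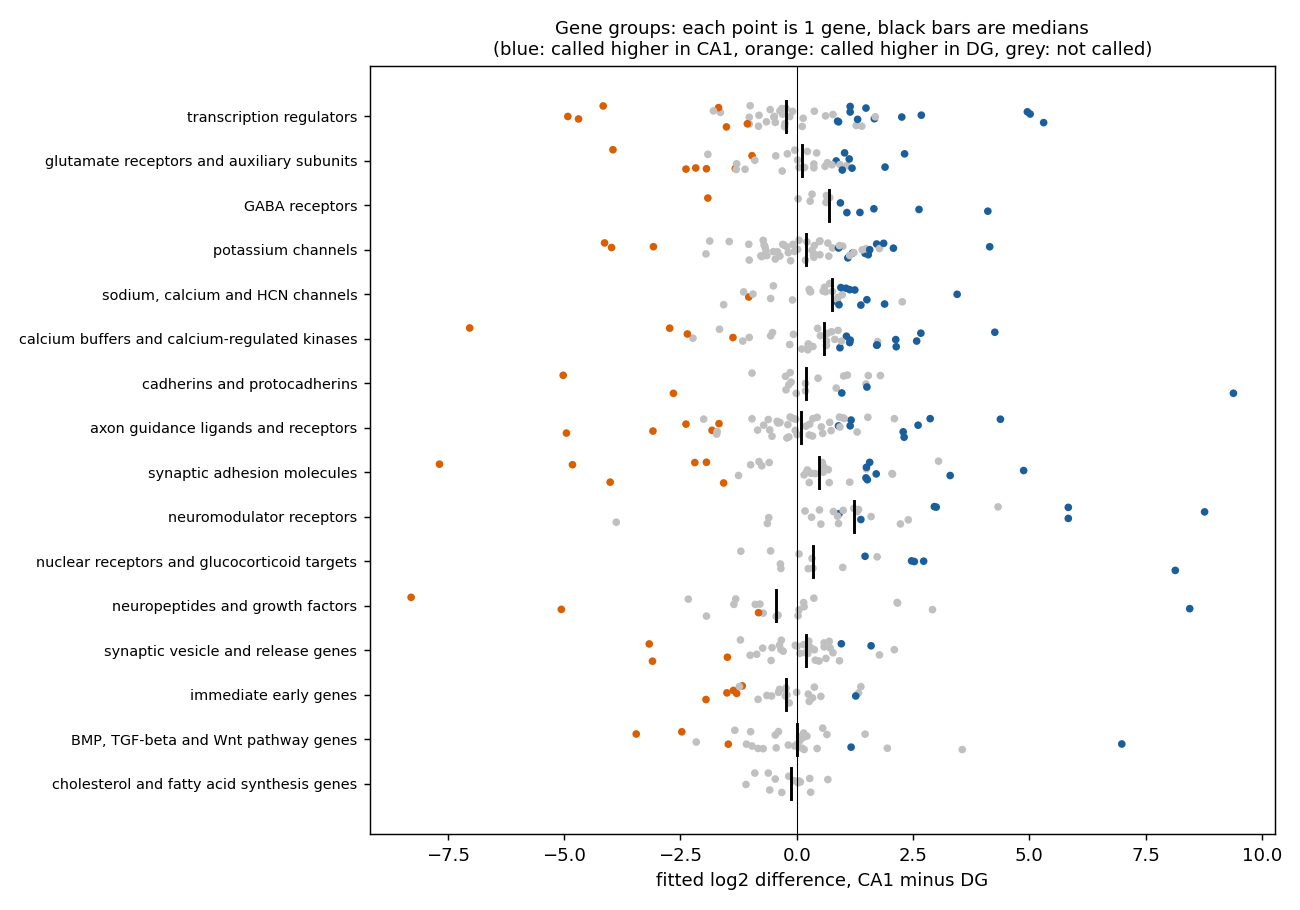
Fitted log2 difference (CA1 minus DG) of every tested member of 16 gene groups, 1 point per gene, with black bars at the group medians and called genes in blue (higher in CA1) or orange (higher in DG). Neuromodulator receptors have the highest median (1.23), and the other medians lie between -0.44 and 0.77.

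The transcripts of a gene can also be used in different proportions. Of 4564 genes with at least 2 transcripts tested, 8 were called by edgeR's test of relative transcript usage (Simes method, Benjamini-Hochberg adjusted p below 0.05), which is 0.175%, and 257 had an unadjusted p under 0.05. They were Cds2, Zfyve9, Cadm2, Rnf112, Plekhg5, Cntn1, Mprip and Son. In Cds2, a CDP-diacylglycerol synthase, transcript 002 (8073 bases) took 57.3% and 27.1% of the gene's estimated counts in DG replicates 2 and 3 and 0.0193% or less in each CA1 library (adjusted p = 0.00114). In Plekhg5, a guanine nucleotide exchange factor, transcript 002 (3933 bases) took 25.1% and 26.8% in DG and had 0 counts in CA1, which allows a share of up to 0.505% in the shallowest CA1 library for this gene (adjusted p = 0.0439). In Cadm2, a synaptic adhesion molecule, transcript 003 took 10.1% and 11.8% in DG and 0 counts in CA1, a share of up to 0.231% (adjusted p = 0.0378).

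The reverse was seen for Zfyve9, an endosomal SMAD anchor, whose transcript 002 took 72.4%, 34.2% and 60.6% in CA1 and 0 counts in DG, a share of up to 3% in the shallower DG library (adjusted p = 0.0378). In Son, a splicing factor, transcript 013 took 16.4%, 15.1% and 22.9% in CA1 and 0 counts in DG, a share of up to 0.573% (adjusted p = 0.0456). In Rnf112, a brain ubiquitin ligase, transcript 002 took 22.9%, 20.9% and 34.8% in CA1 and 0.463% or less in both DG libraries (adjusted p = 0.0378). Cntn1, a contactin, used transcript 001 at 20.2%, 4.4% and 7.7% in CA1 and had 0 counts in DG, a share of up to 0.51% (adjusted p = 0.0439), and Mprip, a myosin phosphatase partner, used transcript 006 at 11.2% and 5.24% in DG with 0 counts in CA1, a share of up to 0.238% (adjusted p = 0.0439). No usage call was made without any 1 of the CA1 libraries, when 426, 286 and 328 genes had an unadjusted p under 0.05. Without DG replicates 2 and 3 the calls numbered 5 and 11. The test takes kallisto's estimates as counts and does not model the error of assigning reads among similar transcripts.

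**Figure D5:**
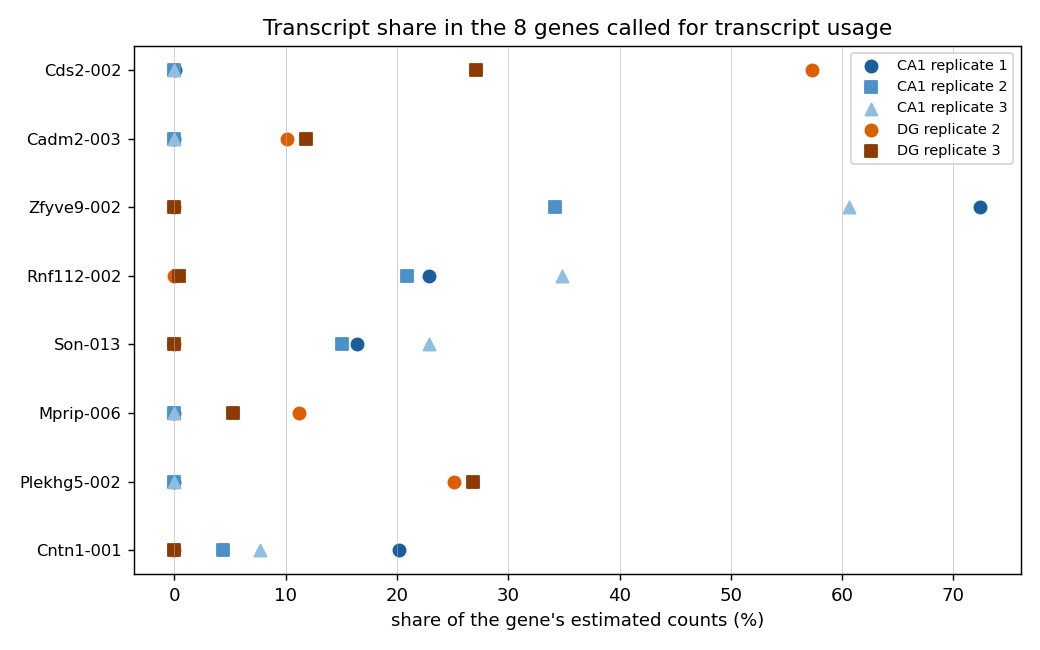
Share of the gene's estimated counts taken by the transcript with the smallest p in each of the 8 genes called for transcript usage, 1 point per library. Each transcript lies at or near 0% in all libraries of 1 region and above it in the other, from 27.1% to 57.3% for Cds2 transcript 002 in DG.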

How the data were processed

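RNA from homogenised CA1 and DG tissue was sequenced in 3 and 2 libraries of 1 mouse. The submitters' processing notes name FastQC, cutadapt, kallisto and DESeq2; their versions, the build and the annotation are not given in the sources used. Per gene, the authors deposited expected counts (kallisto estimated counts) rounded to whole numbers. They equal the deposited transcript estimates summed by gene symbol within 0.5, and 41 symbols pool more than 1 gene ID, so near-identical copies are not separable. The authors also deposited TPM per transcript, which was summed per gene here. Of 58716 transcripts, 90.8% matched GENCODE M21 (GRCm38) by identifier, version and length; coordinates come from that annotation by gene ID.

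Genes were tested in edgeR 4.0.16 (R 4.3.3): filterByExpr (10 counts, 15 in total), TMM scaling, quasi-likelihood F test on region with 3 residual degrees of freedom, Benjamini-Hochberg adjustment and a threshold of 0.05. The SE is the log2 difference divided by the square root of F. Transcript usage was tested with diffSpliceDGE. Scripts were tested on simulated data. An exact permutation of 3 against 2 libraries cannot reach 0.05. DG replicate 2 was the shallowest library, at 1285654 counts.

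Alternatives were RLE and upper-quartile scaling, 2 filters, DESeq2 1.42.0, limma 3.58.1 on log2(TPM + 1) and log2(TPM + 0.1) with at least 1 TPM in 2 libraries, the replicate number as a block, the CA3 control libraries in the fit, thinning to 1285654 counts, and leaving out each library. The comparison and the 32 gene lists were chosen with earlier results of these data known. Genes named outside the lists are calls averaging 5 CPM or more, with no overlap between regions: the 12 highest and 12 lowest by log2 difference and the 6 smallest p in each direction, and the 8 smallest Simes p for usage. Some genes that meet these rules are not reported here. List members are named as examples. Dissociated libraries were not used.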

Additional observations from a re-analysis of the deposited data

How the results depend on the processing

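The 519 genes called higher in CA1 became 803 with no filter on low counts, 790 in DESeq2, 312, 239 and 209 in limma on log2(TPM + 1), log2(TPM + 0.1) and log2(TPM + 1) without a filter, and 91 to 1230 with 1 library left out. The 389 genes called higher in DG became 646 with no filter, 134, 78 and 74 in the same limma fits, and 61 to 839 with 1 library left out. With the replicate number as a replicate block the calls were 59 and 42 and the usage calls 0 (229 genes at an unadjusted p under 0.05). The log2 differences between replicates 2 and 3 of CA1 and between replicates 2 and 3 of DG correlated across genes at 0.07. CA1 replicate 1 does not enter this value, and it cannot settle whether the numbers pair the samples. The labels do not say that they do, so the main fit has no block. The block leaves 1 residual degree of freedom. The 8 usage calls became 76 with the gene-level F test and 0 to 11 with 1 library left out. RLE scaling, a filter of 5 CPM, the CA3 libraries in the fit and thinning kept both gene counts within 1.5 times. Of the 908 calls, 1 reversed in any alternative: Atp2b4, at 0.55, 0.56 and 0.55 in the limma fits. Penk and Sst, not called with all 5 libraries, changed sign between the fits without 1 DG library: Penk was -1.16 without DG replicate 2 and 2.33 without DG replicate 3, and Sst was 3.90 without DG replicate 2 and -1.88 without DG replicate 3, each past the threshold. The causes were not tested. Limits: 1 mouse, 2 DG libraries whose cell type marker sums differ, 1 of them the shallowest library.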

Other observations

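The CA3 control libraries (replicates 1 and 4) entered the comparison of CA1 and DG only as an alternative fit. The CA1 markers differed there: Fibcd1 stood at 854 and 276 CPM, Pou3f1 at 303 and 110 CPM, Wfs1 at 184 and 120 CPM, Nov at 121 and 43.7 CPM and Lefty1 at 17.5 and 16.5 CPM. Mpped1 stood at 562 and 221 CPM and Spink8 at 32.5 and 60.6 CPM. Fibcd1 and Mpped1 in CA3 replicate 1 and Spink8 in CA3 replicate 4 were above every CA1 library. The CA1 libraries had at most 606, 518 and 55.4 CPM of these genes. The other listed CA1 markers did not exceed the highest CA1 library in either CA3 library. The CA3 marker Bok stood at 19.5 and 135 CPM and Grik4 at 23.5 and 127 CPM in CA3 replicates 1 and 4.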
